A study of Mus musculus with 6 samples.

Results

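The solute carriers were examined in the distal part of the midgut of mouse embryos at E13.5. They were taken as the genes whose platform symbol starts with Slc and a family number of 1 to 40, on probes with a single gene symbol. Slc25, the carriers of the inner mitochondrial membrane, and Slc27a2 were left out. The rule found 233 genes on 238 probes, of 13840 genes named on the array, in 38 families. Of these, 4 genes (Slc4a1ap, Slc7a6os, Slc9a3r1 and Slc9a3r2) are named after a carrier and are not carriers themselves. RNA of 3 Id2-/- and of 3 littermate Id2+/+ samples was hybridized to 1 array each, on Applied Biosystems mouse genome survey arrays, to ask which genes of the embryonic midgut differ in level without Id2. Id2-/- embryos lacked both copies of Id2 in every tissue, with mutants kept on an inbred or a mixed strain background, and no further allele or agent was given. Id2 itself was not analysed here, and the labels alone give the genotypes.

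Values below are log2 of the authors' signal divided by the median of its array, so that 0 is the array median, a difference of 1 is a 2-fold difference, and differences are Id2-/- minus Id2+/+. A probe counted as above background on an array where its signal-to-noise score was at least 3, and a gene as detected in a genotype where this held on all 3 arrays. The arrays numbered 1 of both genotypes stood apart. They correlated with each other at r = 0.984 over probes and with the other 4 arrays at 0.909 to 0.931, against 0.979 to 0.988 among those 4. All 13 pan-epithelial markers were detected in both genotypes, and of 9 intestinal epithelial markers 6 were detected in Id2-/- and 7 in Id2+/+, with Cdx1 and Cdhr5 above background on no array. Whole tissue was measured, so fewer cells of a type and less RNA per cell cannot be told apart.

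Solute carriers are membrane proteins that move sugars, amino acids, ions, metals, vitamins, nucleotides and metabolic acids across the plasma membrane or the membranes of organelles, mostly by coupling one solute to the gradient of another. In the mature small intestine, carriers of the brush border take up glucose, amino acids, peptides, bile acids and minerals, and a different set on the basolateral side releases them into the blood. Other members serve every cell. Zinc carriers of Slc39 (ZIP) bring zinc into the cytosol and those of Slc30 (ZnT) take it out, and Slc35 members bring nucleotide sugars into the Golgi apparatus and endoplasmic reticulum for glycosylation. At E13.5 the midgut endoderm is still a simple tube without villi.

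Id2 is a helix-loop-helix protein without a DNA-binding region. It binds E proteins and keeps them from their DNA site, the E-box CANNTG, whose letters read the same on both strands. The promoters of the 2 genes with the largest differences in either direction, Slc5a1 (lower in Id2-/-) and Slc13a2 (higher in Id2-/-), both carriers of the brush border, are therefore printed with each E-box match in capitals. Neither difference passed the test, and each rests partly on arrays below background. They run from 250 bases before to 50 bases after the start, 5′ to 3′ on the gene's own strand, from RefSeq (GRCm38.p6). Slc5a1 lies at chr5:33103969-33104268 on the + strand and Slc13a2 at chr11:78422185-78422484 on the - strand.
Slc5a1: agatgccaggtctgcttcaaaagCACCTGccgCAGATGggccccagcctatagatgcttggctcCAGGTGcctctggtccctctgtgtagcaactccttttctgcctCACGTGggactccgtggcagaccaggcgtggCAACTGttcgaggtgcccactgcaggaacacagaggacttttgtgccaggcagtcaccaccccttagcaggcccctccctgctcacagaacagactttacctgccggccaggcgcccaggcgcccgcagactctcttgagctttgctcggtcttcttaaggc
Slc13a2: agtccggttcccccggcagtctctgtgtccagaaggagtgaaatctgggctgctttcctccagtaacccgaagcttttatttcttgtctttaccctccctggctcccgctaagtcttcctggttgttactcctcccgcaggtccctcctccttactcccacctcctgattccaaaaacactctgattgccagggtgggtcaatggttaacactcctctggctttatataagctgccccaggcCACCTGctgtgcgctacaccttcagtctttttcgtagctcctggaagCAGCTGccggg
The Slc5a1 promoter held 5 matches, all more than 100 bases before the start, and the Slc13a2 promoter held 2, of which 1 lay after the start. Of all 32851 promoters of this length in the table, 72.3% held at least 1 match and 2.1% held 5 or more. Of the 240 promoters of the 186 solute carrier genes found in the table, 71.2% held at least 1, as did 61.3% of the 93 promoters of tested solute carrier genes. A match describes the letters only.

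Of the 233 genes, 73 (31.3%) were detected in Id2-/- midgut and 73 (31.3%) in Id2+/+ midgut, and 65 of these were shared. Of all named genes, 6919 of 13840 (50%) were detected in Id2-/- and 6946 (50.2%) in Id2+/+. A further 66 solute carrier genes were above background on some arrays without being detected in a genotype, 81 were above background on no array, and 5 had flagged probes only. The zinc, copper and iron carriers had the highest share among the groups of carriers proper, with 17 of 24 genes in Id2-/- and 18 of 24 in Id2+/+. Of the 12 zinc importers of Slc39, 10 were detected in at least 1 genotype, and of the 8 zinc exporters of Slc30, 6 were. Nucleotide sugar and acetyl-CoA carriers followed with 12 of 23 in Id2-/- and 10 of 23 in Id2+/+. Carriers of nucleosides and vitamins were detected for 4 of 10 genes in each genotype, and those of amino acids and peptides for 11 of 50 in Id2-/- and 12 of 50 in Id2+/+. The counts were lower by share for carriers of inorganic ions, with 7 of 42 in Id2-/- and 9 of 42 in Id2+/+, and of neurotransmitters, with 2 of 13 in each genotype. Organic acid and organic ion carriers were detected for 11 of 46 genes in Id2-/- and 10 of 46 in Id2+/+, and sugar carriers for 5 of 21 in Id2-/- and 4 of 21 in Id2+/+. The counts describe what was above background on this array and were not tested between groups, since a probe's sensitivity is its own. Groups can hold members that move other substrates. Slc2a9, a carrier of urate, is counted among the sugar carriers, and all Slc35 genes are counted among the nucleotide sugar carriers.

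**Figure D1:**
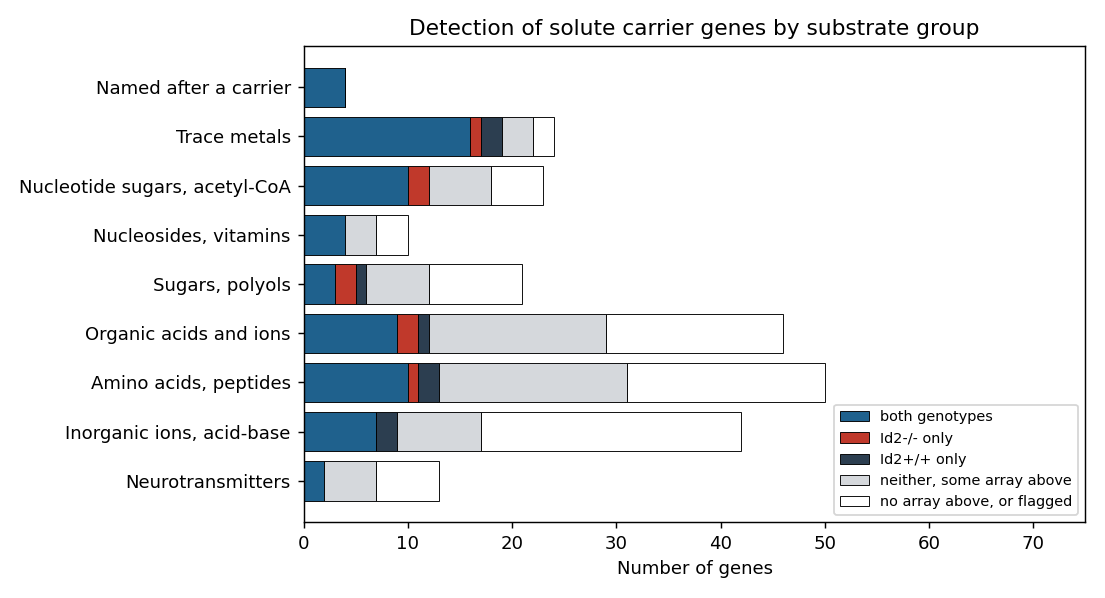
Number of solute carrier genes by substrate group, split by detection (signal-to-noise score of at least 3 on all 3 arrays) in both genotypes, in Id2-/- only, in Id2+/+ only, in neither although some array was above background, or on no array or flagged. Trace metal carriers were detected in at least 1 genotype for 19 of 24 genes, amino acid carriers for 13 of 50.

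A gene detected in 1 genotype only was in each case above background on some arrays of the other. The 8 genes detected in Id2-/- only were Slc7a3, Slc33a1, Slc35a3, Slc13a2, Slc17a4, Slc2a9, Slc37a4 and Slc31a2, each above background on 1 or 2 Id2+/+ arrays. The 8 detected in Id2+/+ only were Slc7a1, Slc7a6, Slc12a9, Slc4a8, Slc10a6, Slc5a1, Slc30a1 and Slc39a3, each above background on 1 or 2 Id2-/- arrays. Of the solute carrier genes, 3.43% were thus detected in Id2-/- only and 3.43% in Id2+/+ only, against 2.72% of all named genes in Id2-/- only and 2.91% in Id2+/+ only. No gene was detected in a genotype and below background on every array of the other. The 81 genes detected in at least 1 genotype were tested for a difference. The 16 genes just named entered through a single genotype, so their differences are partly set by that choice.

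No solute carrier gene differed between Id2-/- and Id2+/+ midgut by limma after Benjamini-Hochberg adjustment over all 12741 tested probes. Nor did any other probe, so the share called was 0% over all probes in either direction. The differences over all tested probes ranged from -3.02 to 3.09, so the lack of calls does not show that levels were equal. At an unadjusted p under 0.05, 234 probes (1.84%) and none of the 81 solute carrier genes passed. The smallest unadjusted p among the genes was 0.15, for Slc5a1, and the smallest adjusted p was 1.0. Differences were small. The median size was 0.15, against 0.12 over all tested probes, and 73 of 81 genes (90.1%) lay within 0.5 of 0, against 92.2% of all tested probes. The difference was above 0 for 46 genes and below 0 for 35, with a median of 0.02 against 0.04 over all tested probes. Only Slc5a1 was at least 2-fold lower in Id2-/- (0.856% of all tested probes were), and no gene was at least 2-fold higher (0.699% of all tested probes). With 3 arrays in each genotype, an exact permutation test cannot give a two-sided p under 0.1.

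**Figure D2:**
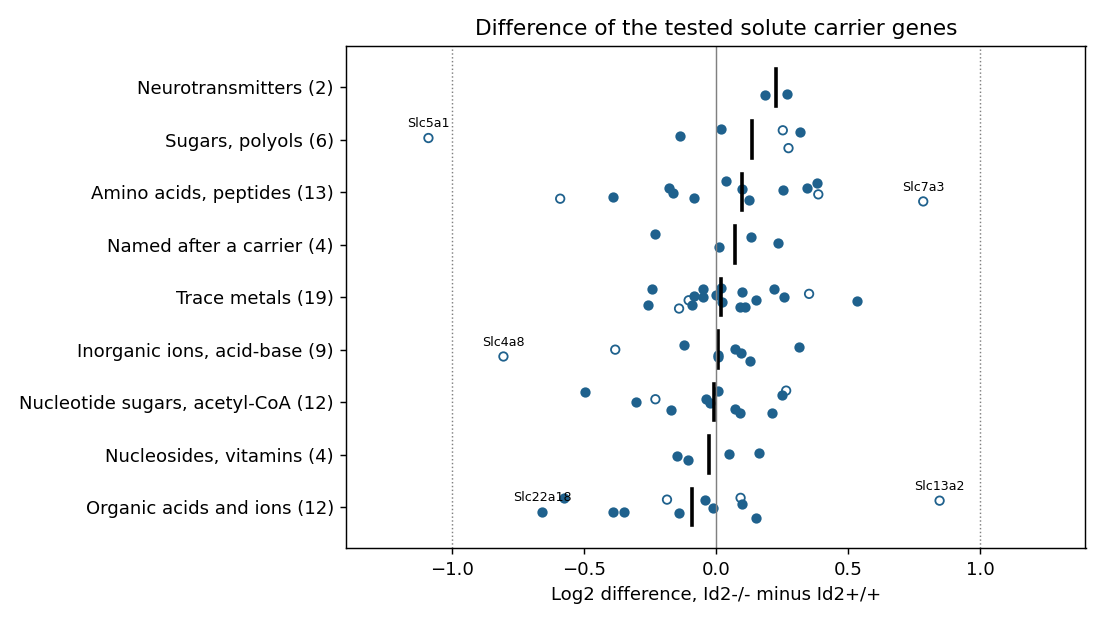
Log2 difference (Id2-/- minus Id2+/+) of the 81 tested solute carrier genes, 1 point each, by substrate group with the number of genes in brackets. Filled points were above background on all 6 arrays and open points on fewer, black bars are group medians and dotted lines mark a 2-fold difference. Slc5a1 alone lies past a dotted line, at -1.09.

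The arrays numbered 1 of both genotypes deviated together. The numbers 2 and 3 did so within and across their numbers, partly because deviations from a genotype mean sum to 0. Pairs are therefore by number alone, and their differences were not alike from number to number. The median solute carrier gene was 0.35 higher in Id2-/- between the arrays numbered 1, and had differences of -0.12 between those numbered 2 and -0.21 between those numbered 3. Over all tested probes the medians were 0.35, -0.04 and -0.19. Of the genes, 30 (37%) were higher in Id2-/- between the arrays numbered 1 and lower in the other 2 pairs, as were 40.1% of all tested probes. The difference was positive in all 3 pairs for 9 genes, against 11.8% of all tested probes, and negative in all 3 for 6 genes, against 5.64%. The 6 were Slc22a18, Slc7a8, Slc12a9, Slc22a21, Slc9a3r1 and Slc35b3. With the array number as a block, limma called 1 gene lower in Id2-/-, Slc5a1 (1.12% of all tested probes were called lower), and none higher (1.06% of all tested probes). That fit gave every gene the same SE of 0.27, taken from all probes, so its calls do not reflect how a gene's own pairs differ.

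Slc5a1 encodes SGLT1, the sodium-coupled carrier that takes glucose and galactose across the brush border. Its level was 0.70, -0.76 and 1.23 on the Id2-/- arrays, against 0.26, 1.82 and 2.35 on the Id2+/+ arrays. The genotypes overlapped, because the Id2+/+ array numbered 1 was below 2 of the Id2-/- arrays, and the Id2-/- array numbered 2 was below background, with a signal-to-noise score of 0.07. The mean was 0.39 ± 1.03 in Id2-/- and 1.48 ± 1.09 in Id2+/+ (SD, n = 3 each), a difference of -1.09 (SE 0.68) or 2.13-fold lower in Id2-/-. Within the pairs the differences were 0.44, -2.58 and -1.13. By limma the adjusted p was 1.0 without the block, 0.0057 with it and 0.76 with the block after quantile normalization. The block fit used the SE of 0.27 common to all genes, whereas the SE of the 3 pair differences of Slc5a1 itself was 0.87, and an exact two-sided sign-flip permutation test of these differences gave p = 0.5, the smallest possible with 3 pairs being 0.25. The call with the block is therefore not taken as a difference of Slc5a1. The difference was -0.51 without the Id2-/- array numbered 2 and -1.70 without the Id2+/+ array numbered 1.

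Sums of epithelial markers differed between the genotypes with the same signs as Slc5a1 in the 3 pairs. So did the sums of smooth muscle, enteric neural, macrophage and liver markers, and 40.1% of all tested probes. The sums of endothelial, erythroid, pancreatic and mesothelial markers had other signs. The summed level of the 13 pan-epithelial markers, in multiples of the array median, was 784, 838 and 865 in Id2-/-, against 564, 1255 and 1447 in Id2+/+. That of the 9 intestinal epithelial markers was 172, 226 and 235 in Id2-/-, against 122, 330 and 461 in Id2+/+. The log2 differences within the pairs were 0.48, -0.58 and -0.74 for the pan-epithelial sum and 0.50, -0.55 and -0.97 for the intestinal sum. The highest markers weigh most in these sums, and not every marker had their signs. Fabp1, Fabp2 and Krt19 were lower in Id2-/- in all 3 pairs. Fabp1 was 1.43, 1.79 and 2.14 in Id2-/-, against 2.51, 3.56 and 4.13 in Id2+/+. Lgals4 was higher in Id2-/- between the arrays numbered 2. Both sums were lowest on the Id2+/+ array numbered 1 and highest on the Id2+/+ arrays numbered 2 and 3. Their part in the levels of Slc5a1 and of the other epithelial carriers was not tested.

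Of 30 carriers known for the mature intestinal epithelium, 25 were on the array, 8 were tested and 8 were above background on no array. Both shares were near those of all 233 solute carrier genes, of which 81 (34.8%) were tested and 81 were above background on no array. The 8 listed carriers above background on no array included Slc15a1, the peptide carrier of the brush border, Slc10a2, the bile acid carrier of the ileum, Slc34a2 for phosphate and Slc23a1 for ascorbate. Slc2a2 and Slc2a5, the carriers for glucose release and fructose uptake, were each above background on 1 Id2+/+ array and on no Id2-/- array. The 8 tested genes had 4 positive and 4 negative differences, with a median of -0.09 against 0.04 over all tested probes. Slc7a7, the basolateral carrier that releases cationic amino acids, was 5.90, 6.15 and 6.26 in Id2-/-, against 5.57, 6.56 and 6.73 in Id2+/+. It was above background throughout, with the Id2-/- levels lying inside the Id2+/+ range (difference -0.18, SE 0.35). Slc7a9, which takes up cystine and cationic amino acids at the brush border together with Slc3a1, was 2.19, 2.20 and 2.55 in Id2-/-, against 1.32, 2.33 and 2.13 in Id2+/+ (difference 0.38, SE 0.33). The low value was again the Id2+/+ array numbered 1.

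Slc7a8, a basolateral carrier of neutral amino acids, was 1.29, 2.10 and 2.02 in Id2-/-, against 1.58, 2.20 and 2.79 in Id2+/+ (difference -0.39, SE 0.39). It was lower in Id2-/- in each pair, yet the genotypes overlapped, and the difference was -0.090 without the Id2+/+ array numbered 3. Slc13a2, which takes up dicarboxylates and citrate, was 0.37, 0.85 and 1.65 in Id2-/-, against -1.73, 1.50 and 0.57 in Id2+/+ (difference 0.85, SE 0.80). This was the largest positive difference among the genes, 1 Id2+/+ array and all 3 Id2-/- arrays were above background, and the difference was -0.075 without the Id2+/+ array numbered 1. Slc40a1, the iron exporter ferroportin, had a difference of -0.26 (SE 0.25), Slc12a2, a sodium, potassium and chloride carrier, of 0.32 (SE 0.46), and Slc39a4, the zinc importer of enterocytes, of 0.00 (SE 0.27).

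**Figure D3:**
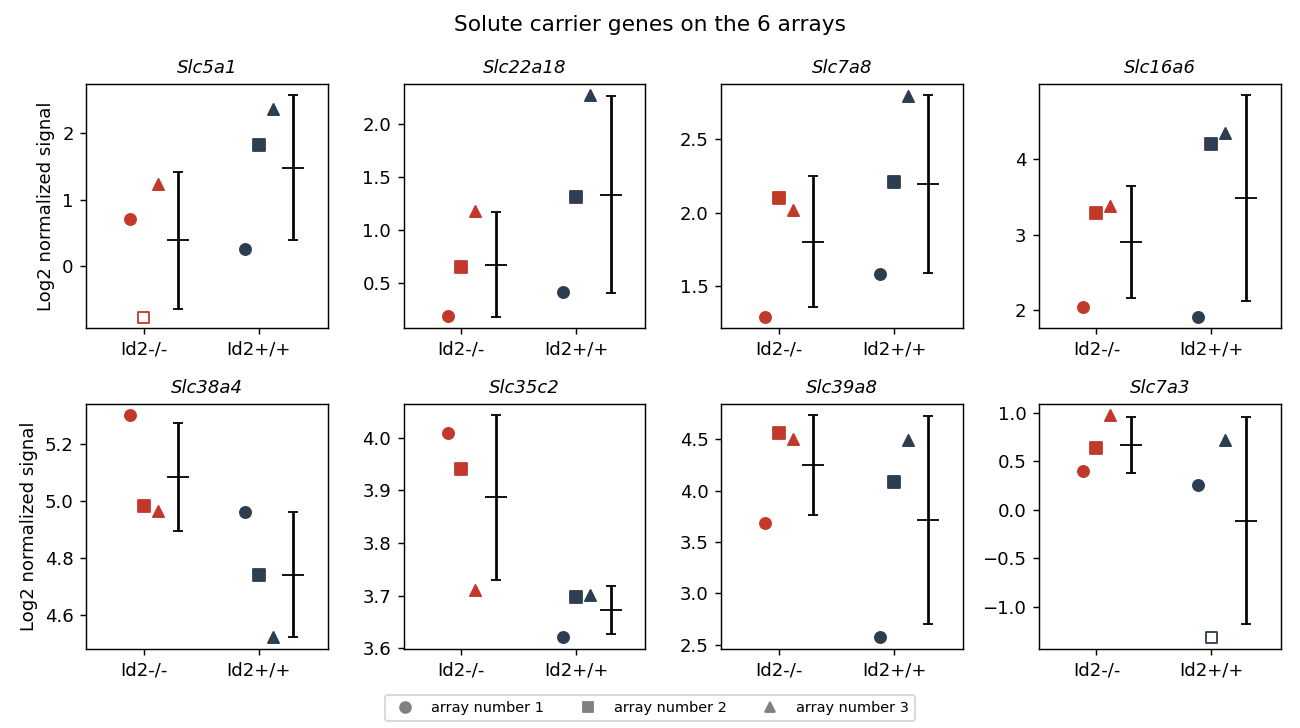
Log2 normalized signal of 8 solute carrier genes on the 6 arrays, Id2-/- at the left of each panel and Id2+/+ at the right. Symbols give the array number, open symbols were below background, and bars are the mean ± SD (n = 3 each). Slc38a4 and Slc35c2 are the genes whose genotypes do not overlap, and Slc5a1 spans -0.76 to 1.23 in Id2-/- and 0.26 to 2.35 in Id2+/+.

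Among all amino acid carriers, 8 of 13 tested genes had positive and 5 negative differences (median 0.10). Slc38a4, a sodium-coupled carrier of neutral amino acids, was 5.30, 4.99 and 4.97 in Id2-/-, against 4.96, 4.74 and 4.52 in Id2+/+. Every Id2-/- array was above every Id2+/+ array, by a mean of 0.34 (SE 0.25, limma adjusted p = 1.0), and by 0.34, 0.24 and 0.44 within the pairs. The genotypes did not overlap in this direction for 1 further solute carrier gene, Slc35c2, and for 2.73% of all tested probes, and in the other direction for no solute carrier gene and 1.29% of all tested probes. Slc38a4 is an imprinted gene that is expressed from the paternal copy. Slc38a2, the widely expressed carrier of the same family, had a difference of 0.10 (SE 0.26).

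The cationic amino acid carriers Slc7a1 and Slc7a3 lay near background. Slc7a3 was 0.40, 0.63 and 0.98 in Id2-/-, against 0.26, -1.32 and 0.72 in Id2+/+ (difference 0.79, SE 0.52). The Id2+/+ array numbered 2 was below background and set most of the difference, which was 0.18 without it. Slc7a1 was 0.09, 0.47 and 1.02 in Id2-/-, against 0.02, 0.76 and -0.37 in Id2+/+ (difference 0.39, SE 0.38). Slc7a6, whose protein exchanges cationic for neutral amino acids, was 1.96, 0.35 and -1.78 in Id2-/-, against 1.68, 0.01 and 0.61 in Id2+/+. Its difference was -0.59 (SE 0.91), and 0.39 without the Id2-/- array numbered 3. Slc3a2, the heavy chain that Slc7 carriers share, and Slc7a5, its partner for large neutral amino acids, had differences of -0.16 (SE 0.25) and 0.04 (SE 0.27).

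Carriers of organic acids and organic ions had 4 positive and 8 negative differences among 12 tested genes (median -0.09). Slc22a18, an imprinted gene expressed from the maternal copy whose substrate is not settled, was 0.19, 0.65 and 1.18 in Id2-/-, against 0.42, 1.31 and 2.27 in Id2+/+. It was lower in Id2-/- in each pair, by a mean of -0.66 (SE 0.50), and the genotypes overlapped. The difference was -0.19 without the Id2+/+ array numbered 3 and -1.12 without the Id2+/+ array numbered 1. Slc22a21, a carnitine carrier in mouse, had negative differences in each pair too (mean -0.35, SE 0.31). The monocarboxylate family Slc16 had 4 tested genes. Slc16a3, the lactate exporter of glycolytic cells, was 3.72, 4.24 and 4.45 in Id2-/-, against 3.51, 4.91 and 5.15 in Id2+/+ (difference -0.39, SE 0.47). Slc16a6 was 2.05, 3.29 and 3.37 in Id2-/-, against 1.91, 4.19 and 4.34 in Id2+/+ (difference -0.58, SE 0.70). In both genes the arrays numbered 1 were the lowest of each genotype, and Id2-/- was lower in the other 2 pairs only. Leaving out 1 array gave differences of -0.90 to -0.076 for Slc16a3 and of -1.36 to -0.15 for Slc16a6, the lowest without the Id2+/+ array numbered 1 and the highest without the Id2+/+ array numbered 3.

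Trace metal carriers had 11 positive and 8 negative differences among 19 tested genes (median 0.02), and 18 of the 19 lay within 0.5 of 0. The exception was Slc39a8, a zinc and manganese importer, which was 3.69, 4.56 and 4.50 in Id2-/-, against 2.57, 4.09 and 4.49 in Id2+/+ (difference 0.53, SE 0.53). The Id2+/+ array numbered 1 was the lowest, and without it the difference was -0.040. The zinc importers Slc39a6, Slc39a7 and Slc39a10 were above background on all arrays, with differences of 0.09 (SE 0.26), 0.15 (SE 0.29) and 0.11 (SE 0.23). Slc39a7 releases zinc from the endoplasmic reticulum. Slc39a1 was measured by 2 probes, with differences of 0.10 and 0.26. The zinc exporters Slc30a4 and Slc30a5 had differences of -0.05 (SE 0.46) and -0.09 (SE 0.39), and the copper carriers Slc31a1 and Slc31a2 of -0.24 (SE 0.31) and 0.35 (SE 0.64).

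Nucleotide sugar and acetyl-CoA carriers had 6 positive and 6 negative differences among 12 tested genes (median -0.01). Slc35c2, known in mouse for its part in the fucosylation of Notch, was 4.01, 3.94 and 3.71 in Id2-/-, against 3.62, 3.70 and 3.70 in Id2+/+. The lowest Id2-/- array lay just above the highest Id2+/+ array (difference 0.21, SE 0.22). Slc35g1 had the lowest difference of the group and was 1.86, 1.22 and 1.49 in Id2-/-, against 1.50, 2.49 and 2.05 in Id2+/+ (difference -0.49, SE 0.33). Slc35a1, the CMP-sialic acid carrier, had a difference of 0.25 (SE 0.30), Slc35e2 of -0.30 (SE 0.31), and Slc33a1, which brings acetyl-CoA into the endoplasmic reticulum, of 0.27 (SE 0.47).

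Inorganic ion carriers had 6 positive and 3 negative differences among 9 tested genes (median 0.01). Slc4a8, a sodium-driven chloride and bicarbonate exchanger, was 2.01, 0.76 and -1.65 in Id2-/-, against 1.60, 1.24 and 0.69 in Id2+/+. Its difference of -0.81 (SE 0.85) rested on the Id2-/- array numbered 3, which was below background, and was 0.21 without it. Slc12a9 was lower in Id2-/- in each pair (mean -0.38, SE 0.35). The nucleoside and vitamin carriers Slc29a2, for nucleosides, and Slc5a6, for biotin and pantothenate, had differences of -0.15 (SE 0.28) and 0.16 (SE 0.30), the group having 2 positive and 2 negative differences among 4 genes (median -0.03). The sugar carriers had 4 positive and 2 negative differences among 6 genes (median 0.14, and -0.26 without the Id2+/+ array numbered 2), Slc37a1, of the glucose-6-phosphate carrier family, having one of 0.32 (SE 0.45). Of the 4 genes named after a carrier (median 0.07), Slc9a3r1 (NHERF1), a scaffold under the brush border, was 5.74, 5.84 and 5.73 in Id2-/-, against 5.76, 6.19 and 6.05 in Id2+/+ (difference -0.23, SE 0.23). Slc9a3r2 had a difference of 0.24 (SE 0.50).

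The lists of carriers known for other cell types were short, and 34.8% of all solute carrier genes were tested. Of the carriers on the array, 1 of 4 for endothelium, 1 of 6 for liver and 1 of 4 for mesenchyme was tested. Of 11 carriers of enteric neurons and neural crest, 3 were tested. Slc18a3, which fills vesicles with acetylcholine, was 3.31, 3.11 and 3.33 in Id2-/-, against 2.89, 3.23 and 2.81 in Id2+/+ (difference 0.27, SE 0.24). Slc18a2, the vesicular monoamine carrier, and Slc10a4, found in cholinergic and monoaminergic vesicles, had differences of 0.19 (SE 0.27) and 0.10 (SE 0.33). The genotypes overlapped for all 3, and the summed level of 6 enteric neural markers was 692 to 807 in Id2-/- and 558 to 879 in Id2+/+. Slc5a7, the choline carrier, was above background on no array. Of 4 erythroid carriers on the array, none was tested, and Slc4a1 (band 3) was above background on no array, although 4 of 5 erythroid markers were detected in both genotypes. Slc20a1, a phosphate carrier listed for mesenchyme, had a difference of 0.01 (SE 0.32).

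The distance of the arrays numbered 1 from the rest exceeded any genotype difference in a number of genes. The mean of the arrays numbered 1 lay at least 1 below that of the other 4 arrays for 11 of the 81 genes and at least 1 above it for 8. The same count was not made over all tested probes. These arrays stood apart over all probes, and whether the counts are particular to solute carriers cannot be told without that share. Slc2a9, a carrier of urate, was 4.66, 0.34 and 0.62 in Id2-/-, against 3.58, 0.59 and 0.61 in Id2+/+, and so was high on both arrays numbered 1 alone, by 3.58. It was followed by Slc7a6 (2.02 higher), Slc30a9 (1.62 higher), Slc4a8 (1.54 higher) and Slc31a2 (1.52 higher). In the other direction, Slc4a4, a sodium and bicarbonate cotransporter, was 0.80, 2.15 and 2.40 in Id2-/-, against 0.39, 2.67 and 2.66 in Id2+/+, a gap of -1.88. The gap was -1.82 for Slc13a2, -1.82 for Slc16a6 and -1.72 for Slc17a4. On the arrays numbered 1 the summed level of 10 smooth muscle and mesenchymal markers was also lowest, at 3718 in Id2-/- and 2836 in Id2+/+, against 5560 to 6125 and 6858 to 6994 on the other arrays of Id2-/- and Id2+/+. The highest markers, Col1a2 and Col3a1, weigh most in this sum. They, Acta2, Tagln, Actg2 and Col1a1 were lowest on the arrays numbered 1 of both genotypes, and Cnn1, Myh11 and Pdgfra in 1 genotype only. Des was highest there, at 4.07 in Id2-/- and 3.99 in Id2+/+. The part of the sum in these gaps was not tested.

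**Figure D4:**
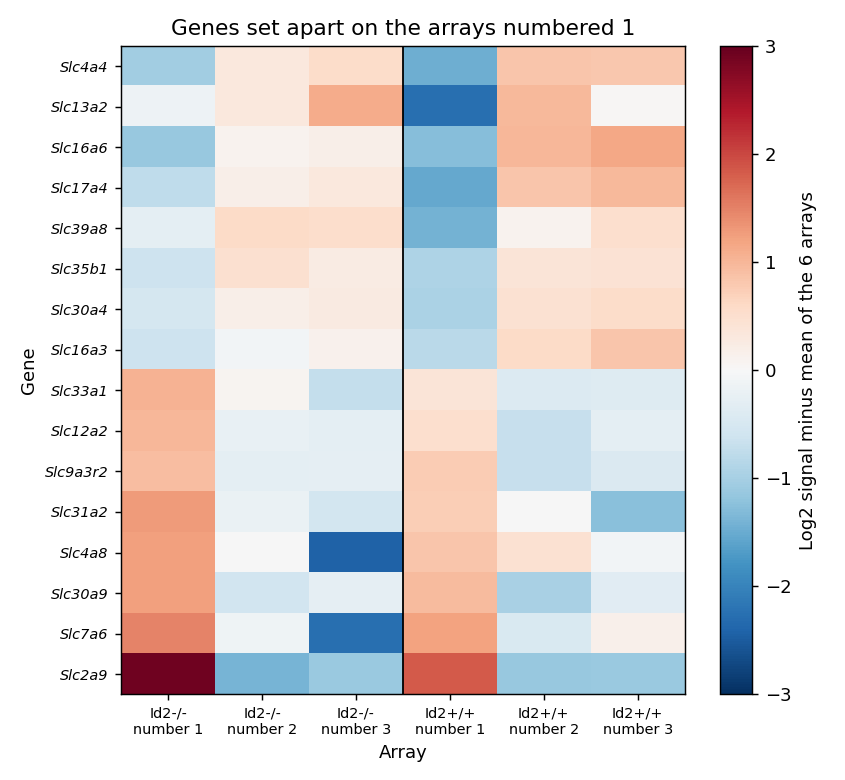
Log2 signal minus the mean of the 6 arrays for the 8 genes with the largest gap below and the 8 with the largest gap above between the arrays numbered 1 and the rest, red being above and blue below the gene's mean. Id2-/- arrays stand at the left and Id2+/+ arrays at the right. Slc2a9 is high on both arrays numbered 1, by 3.58.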

How the data were processed

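Gene expression was measured in 3 Id2-/- and 3 Id2+/+ samples of distal midgut, with 1 array each, after 1 round of amplification of the RNA. The deposited array files hold, per probe, the scanner intensity, a signal-to-noise score of the scanner software, a quality flag and the authors' normalized signal, which is the intensity divided by the median intensity of unflagged spots on that array. The number of arrays limits the precision. The sources used here do not say whether background was subtracted. Spots with flags of 5000 or more were dropped as bad, although the methods as written leave out flags under that value, and 32189 of 33012 probes were unflagged on all 6 arrays. Of the probes, 14411 carry 1 gene symbol in the platform annotation, 247 several and 18354 none, and all 233 symbols matched a RefSeq gene table. Of the 238 probes, 6 were flagged.

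Log2 of the normalized signal was tested with limma 3.58.1 (R 4.3.3, eBayes, Benjamini-Hochberg adjustment at 0.05) over the 12741 unflagged probes whose score reached 3 on every array of a genotype. The fit was tested on simulated data with independent noise on each array. These lacked the shared deviation of the arrays numbered 1, so the fit was not tested under it. Where several probes measured a gene, the one with the highest mean was used. Whether samples of a genotype came from separate embryos or litters is not given beyond littermates, so p-values cover only the spread among these samples, which may be technical. Same-numbered arrays deviated together (r = 0.838, 0.644 and 0.579 for the numbers 1, 2 and 3). The numbers 2 and 3 did so across each other too. Id2-/- 3 correlated with Id2+/+ 2 at 0.638, above its own number, and Id2-/- 2 with Id2+/+ 3 at 0.549. The values thus set only the arrays numbered 1 apart, and neither they nor the labels show how the others pair. Differences within pairs are by number alone, and the main fit used no pairing.

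Genes were named where they were among the 10 largest differences in either direction, the 2 smallest p-values of a substrate group or the carriers listed for a cell type; Slc35c2, Slc35b3, the further zinc carriers and the genes set apart on the arrays numbered 1 were added after their values were seen. The genes and lists were chosen with earlier results of these data known. Alternatives were quantile normalization, other filters on the score, an offset of 0.5, the deposited table of the series, the array number as a block, a trended robust prior, the methods' t-test and leaving out each array. The files name no slide or scan, so no such block was fitted. The exact sign-flip test of the pair differences was added after the values were seen.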

Additional observations from a re-analysis of the deposited data

How the results depend on the processing

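No solute carrier gene was called by limma under quantile normalization, the other filters on the score, the offset, the deposited table, the trended robust prior or the methods' t-test (0 at an unadjusted p under 0.05 as well). With the replicate block, 1 gene was called lower, Slc5a1 (adjusted p = 0.0057, from an SE of 0.27 common to all genes, against 0.87 over its own pairs), and 0 with the block and quantile normalization; the block changed no other call of the genes. Genes detected numbered 95 in Id2-/- and 93 in Id2+/+ with 2 of 3 arrays, and 63 in Id2-/- and 64 in Id2+/+ with a score of at least 5. The count at least 2-fold lower, 1, became 0 with a score of 3 on all 6 arrays, 0 with the offset and 0 in each pair of arrays. With no filter on the score 5 genes were at least 2-fold higher and 4 lower. Without each array in turn, the count lower was 0 to 4 (4 without Id2-/- 1, 3 without Id2+/+ 1, 0 without Id2-/- 2 and Id2+/+ 2) and the count higher 0 to 2 (2 without Id2+/+ 3). The median difference ranged from -0.20 to 0.16 for inorganic ion carriers and from -0.30 to 0.16 for genes named after a carrier, the lowest values being without Id2+/+ 1. It also changed sign for sugars (-0.26 to 0.16), nucleotide sugars (-0.22 to 0.15), nucleosides and vitamins (-0.18 to 0.10), trace metals (-0.049 to 0.12) and all solute carrier genes (-0.10 to 0.14), and kept its sign for amino acids, organic acids and neurotransmitters.

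Of the 37 named and tested genes, 20 kept their sign without each array in turn, although sizes moved, as for Slc5a1 (-1.70 to -0.51), Slc22a18 (-1.12 to -0.19), Slc16a6 (-1.36 to -0.15), Slc16a3 (-0.90 to -0.076), Slc7a8 (-0.69 to -0.090) and Slc7a3 (0.18 to 1.20). The other 17 crossed 0 and ranged as follows: Slc10a4 -0.19 to 0.28, Slc12a2 -0.11 to 0.65, Slc13a2 -0.075 to 1.54, Slc18a2 -0.023 to 0.30, Slc20a1 -0.31 to 0.17, Slc2a9 -1.12 to 1.27, Slc31a2 -0.19 to 0.82, Slc33a1 -0.19 to 0.69, Slc37a1 -0.11 to 0.61, Slc39a4 -0.12 to 0.19, Slc39a8 -0.040 to 0.92, Slc4a8 -1.62 to 0.21, Slc5a6 -0.10 to 0.37, Slc7a5 -0.12 to 0.18, Slc7a6 -1.48 to 0.39, Slc7a7 -0.54 to 0.041 and Slc9a3r2 -0.17 to 0.68. Quantile normalization, without or with the block, gave -0.020 for Slc20a1 and -0.050 for Slc39a4, and the offset gave -0.00020 for Slc39a4. The causes were not tested. A block for slide or scan was not run. The 16 genes below background on some arrays rest partly on signals with no order among them.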
